A study of Gallus gallus with 19 samples.

Results

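The 54 genes described here encode proteins of the splicing machinery and the heterogeneous nuclear ribonucleoproteins (hnRNPs). They were all the genes of the filtered count table whose symbol began with HNRNP, SRSF and a digit, SNRP, SF3A, SF3B, U2AF or PRPF, 54 of 18996 genes. By prefix they fell into 15 HNRNP, 10 SRSF, 10 SNRP, 8 SF3A and SF3B, 2 U2AF and 9 PRPF genes. Membership rested on the symbol alone and used no measured value. The expression of these genes was compared in the neural plate border (NPB) of chicken embryos after knockdown of each of 3 pluripotency factors, Nanog, PouV and Klf4.

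Wild-type embryos at Hamburger-Hamilton stage HH4 received a translation blocking morpholino (MO), a short antisense oligomer that stops protein synthesis from its target mRNA, while the contralateral side received a control MO, both with an empty pCIG plasmid as carrier. Dorsal neural folds were taken at HH7/HH8-, pooled by side over several embryos, and sequenced in bulk; the labels give the tissue as midbrain and the cell type as neural crest. The Nanog experiment gave 4 MO and 4 control samples, the PouV experiment 3 and 2, and the Klf4 experiment 4 and 2, and the 8 controls were pooled as one group. Pools were the replicates, so p-values measured the spread among pools. The main test treated all pools as independent, with no term for sides of the same embryos or for the experiment. In such bulk samples fewer cells of a type and less RNA per cell cannot be told apart.

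Splicing removes introns from pre-mRNA in the spliceosome, which is built from small nuclear RNAs and their proteins. Sm proteins form a ring around most of these RNAs, U2AF and the SF3A and SF3B complexes help to define the branch site and the 3' splice site, and PRPF proteins act in the later particles and in catalysis. SR proteins (SRSF) mostly promote the use of nearby exons, whereas hnRNPs coat nascent transcripts and often oppose it, although both act either way depending on position.

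Total counts per sample ranged from 31215191 to 44726348, with a median of 39160549, and the members took between 2.00% and 2.22% of them. Because the MOs block translation, mRNA of the targeted gene does not measure the knockdown, and the log2 fold change of the target's own mRNA was -0.30 ± 0.33 (SE) for NANOG and 0.50 ± 0.15 for POU5F3, the PouV gene (edgeR adjusted p = 1.00 and 0.13). No tested gene was matched to KLF4, so no value for its mRNA is given. All 9 NPB markers checked were detected in every sample, with summed levels of 568 to 860 CPM (CPM stands for reads per 1000000 reads, scaled here by the library size after TMM normalisation). The NPB sums were 568 to 643 CPM in Nanog MO samples and 733 to 860 CPM in the Nanog controls, and the sides overlapped in the PouV and Klf4 experiments. The sums of 13 mesoderm markers reached 811 CPM and those of 11 endoderm markers 1738 CPM. PouV MO replicate 3 stood apart from the other samples in several gene groups described here, and values without it are given beside most PouV results.

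All 54 genes had a mean of at least 1 CPM over the 19 samples. Their spread among the 8 controls was small, with a coefficient of variation from 3.99% for SRSF11, an SR-related splicing factor, to 43.1% for HNRNPKL, and the next highest was 20.4% for HNRNPLL. Of the 54 members, 15 (27.8%) were among the 1000 genes of lowest variation that served as references for the removal of unwanted variation, against 5.26% of all genes. These 15 were 5 HNRNP, 3 SRSF, 3 SF3A or SF3B, 1 U2AF and 3 PRPF genes, and no SNRP gene was among them. Leaving all members out of the reference set left the count of called members at 0 in each knockdown.

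The first question was whether any member differed between a knockdown and the controls. In edgeR's quasi-likelihood test with Benjamini-Hochberg adjustment over all genes, 0 of 54 members were called at an adjusted p under 0.05 after Nanog knockdown, where 0.268% of all genes were called. After PouV knockdown 0 of 54 were called against 0.663% of all genes, and after Klf4 knockdown 0 of 54 against 0.0158%. DESeq2 called 0 members after Nanog knockdown, 2 after PouV knockdown (HNRNPU and HNRNPA3) and 0 after Klf4 knockdown, where it called 113, 515 and 78 of all genes. Over the members the median log2 fold change was -0.019 in the Nanog, 0.0019 in the PouV and 0.0060 in the Klf4 comparison, where the medians over all genes were 0.0037, -7.7e-05 and -0.00080.

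**Figure D1:**
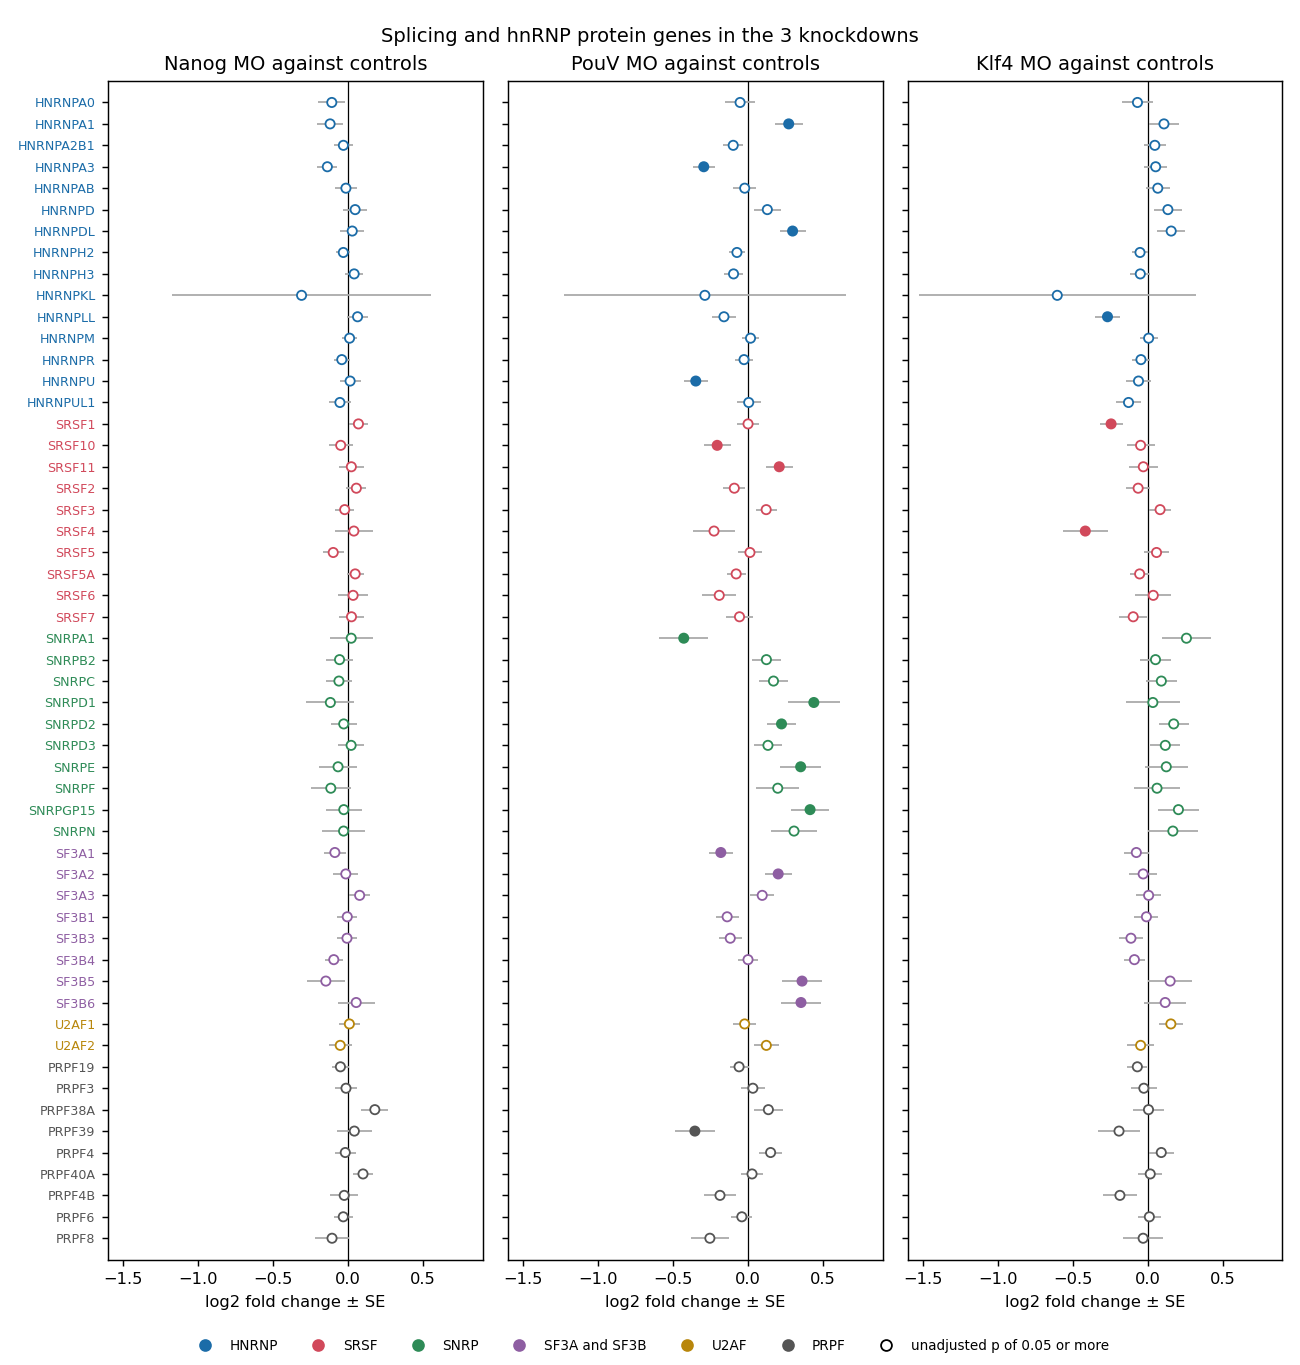
Log2 fold change with its standard error (SE, horizontal bar) of each of the 54 members (vertical axis, coloured by prefix group) in each knockdown against the 8 controls; filled points had an unadjusted p under 0.05. Points lie close to 0 after Nanog knockdown, where no point is filled, and are most spread after PouV knockdown, where 10 are filled above 0 and 6 below.

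After Nanog knockdown the members lay closest to the controls. Of the 54 log2 fold changes, 44 were within 0.1 of 0 and 53 within 0.2, and the exception was HNRNPKL. No member had an unadjusted p under 0.05, against 3.87% of all genes on the higher side and 1.93% on the lower side. No member had every Nanog MO sample above every control or every one below, where the shares of all genes were 0.479% and 0.153%. The median SE of a member's log2 fold change was 0.078. A shift had to be several times its SE to be called, so shifts of that size or somewhat larger could not be seen with these pools.

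The members with the smallest p-value in each prefix group gave the size of the differences. HNRNPA3, an hnRNP of the A/B family, had a log2 fold change of -0.14 ± 0.066 (SE; edgeR adjusted p = 0.86). PRPF38A, a factor needed for spliceosome activation, was at 57.8 to 77.1 CPM in Nanog MO samples and 47.3 to 67.1 CPM in controls, a log2 fold change of 0.18 ± 0.090 (edgeR adjusted p = 0.87). The groups overlapped for both genes. For SRSF5, an SR protein, SNRPF of the Sm ring, SF3B4 of the SF3B complex and U2AF2, the large subunit that binds the polypyrimidine tract, the values were -0.10, -0.11, -0.09 and -0.05, with edgeR adjusted p-values from 0.95 to 1.00. The member of each prefix group with the most reads in the controls behaved alike, with -0.03 for HNRNPH2, 0.07 for SRSF1, 0.02 for SNRPD3, -0.0056 for SF3B3 and -0.11 for PRPF8.

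After PouV knockdown the members were more spread. At an unadjusted p under 0.05, 10 members were higher and 6 lower, 29.6% of the members, where 9.38% of all genes were higher and 6.32% lower, 15.7% together. The log2 fold change exceeded 0.3 in either direction for 9 members, and 34 were within 0.2. For 2 members, HNRNPU and HNRNPA3, every PouV MO sample lay below every control, as did 0.848% of all genes, and for none did every sample lie above, where the share of all genes was 1.06%. Without PouV MO replicate 3, 1 member was higher and 4 were lower at an unadjusted p under 0.05, against 3.45% and 3.17% of all genes, and the 5 were HNRNPDL, HNRNPU, HNRNPA3, SNRPA1 and PRPF19.

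HNRNPU, a nuclear scaffold protein that binds RNA and chromatin, had the smallest p-value of all members. It was at 711, 669 and 839 CPM in PouV MO replicates 1, 3 and 4. The 8 controls ran from 870 to 1031 CPM, with a median of 932. All 3 knockdown samples were therefore below the lowest control, which was PouV control replicate 3, the opposite side of the embryos of PouV MO replicate 3. The log2 fold change was -0.35 ± 0.080 (SE), a level 0.786 times that of the controls, with an unadjusted p of 0.00035 and an edgeR adjusted p of 0.052. Within the pairs of sides the log2 ratio was -0.42 in PouV pair 1 and -0.38 in PouV pair 3, whereas in the 6 pairs of the other experiments it lay between -0.09 and 0.07.

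HNRNPA3 was the second member with all samples on the lower side. Its PouV MO values were 1147, 1164 and 1313 CPM, and the controls ran from 1349 to 1619 CPM with a median of 1468, so the highest knockdown sample lay just under the lowest control. The log2 fold change was -0.29 ± 0.074 (SE; unadjusted p = 0.00079, edgeR adjusted p = 0.077), and the ratios within PouV pairs 1 and 3 were -0.25 and -0.47. Without PouV MO replicate 3 the log2 fold change was -0.27 for HNRNPU and -0.26 for HNRNPA3, with edgeR adjusted p-values of 0.42 and 0.50. With the replicate block, where only PouV pairs 1 and 3 inform the PouV effect, it was -0.40 and -0.34 (edgeR adjusted p = 0.12 and 0.16). PouV MO replicate 4 has no paired control. Against the 2 PouV controls alone, and without the factor for unwanted variation, the log2 fold change was -0.30 for each (edgeR adjusted p = 0.98 and 0.97). The call of these genes was thus at the threshold: HNRNPU passed without PouV MO replicate 4 (adjusted p = 0.0090), without PouV control replicate 3 (0.045) and without Klf4 control replicate 3 (0.041), all by edgeR.

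**Figure D2:**
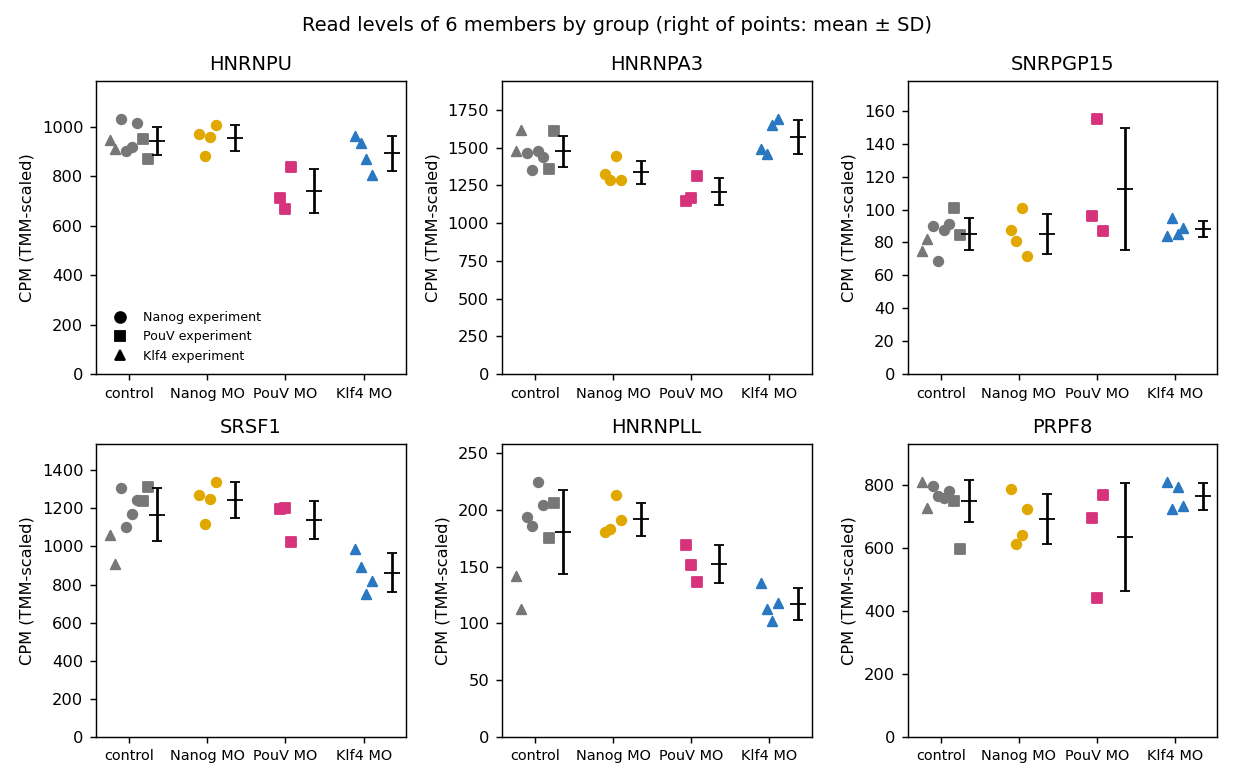
Levels in CPM (vertical axes, from 0) of HNRNPU, HNRNPA3, SNRPGP15, SRSF1, HNRNPLL and PRPF8 in the control, Nanog MO, PouV MO and Klf4 MO groups; each point is a sample, its shape gives the experiment, and the bar beside the points is the mean ± SD. All 3 PouV MO samples are below every control for HNRNPU and HNRNPA3, PouV MO replicate 3 is the high point for SNRPGP15, and for SRSF1 and HNRNPLL the 2 lowest controls are those of the Klf4 experiment.

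Other hnRNP genes went both ways after PouV knockdown. HNRNPA1, a well-known antagonist of SR proteins in splice site choice, was at 1637, 2281 and 1619 CPM in PouV MO replicates 1, 3 and 4 and at 1311 to 1752 CPM in controls. Only replicate 3 was outside the control range, and the log2 fold change of 0.27 ± 0.094 (edgeR adjusted p = 0.17) was 0.11 without it. HNRNPDL, a relative of HNRNPD that lies next to it in the genome, had values of 242, 286 and 189 CPM against 154 to 238 CPM in controls, and a log2 fold change of 0.30 ± 0.087 (edgeR adjusted p = 0.12), and 0.20 without replicate 3. Its MO side was higher in 7 of the 8 pairs over all 3 experiments, with ratios from -0.09 to 0.27. The median over the 15 HNRNP genes was -0.051, with 5 above and 10 below 0.

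Among the SR proteins 1 of 10 was higher and 1 lower at an unadjusted p under 0.05. SRSF11 was at 387, 493 and 312 CPM in PouV MO replicates 1, 3 and 4, and at 331 to 371 CPM in controls. The 3 samples lay on both sides of the control range, and the log2 fold change of 0.21 ± 0.090 (edgeR adjusted p = 0.26) was 0.035 without replicate 3. SRSF10, a regulator whose activity depends on dephosphorylation, had -0.20 ± 0.090 (edgeR adjusted p = 0.27), and -0.062 without replicate 3. SRSF1, the SR protein with the most reads, had 0.0020 ± 0.073.

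The SNRP group had the highest median of the 6 prefix groups after PouV knockdown, 0.21 over 10 genes, with 9 above and 1 below 0, and 4 higher and 1 lower at an unadjusted p under 0.05. All 7 genes of the Sm ring were above 0, with a median of 0.31 and a range of 0.13 to 0.44. This rested on PouV MO replicate 3. There the median deviation of the 7 genes from the control mean was 0.77 on a log2 scale, while it was 0.07 and -0.0022 in PouV MO replicates 1 and 4 and between -0.29 and 0.25 in the controls.

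**Figure D3:**
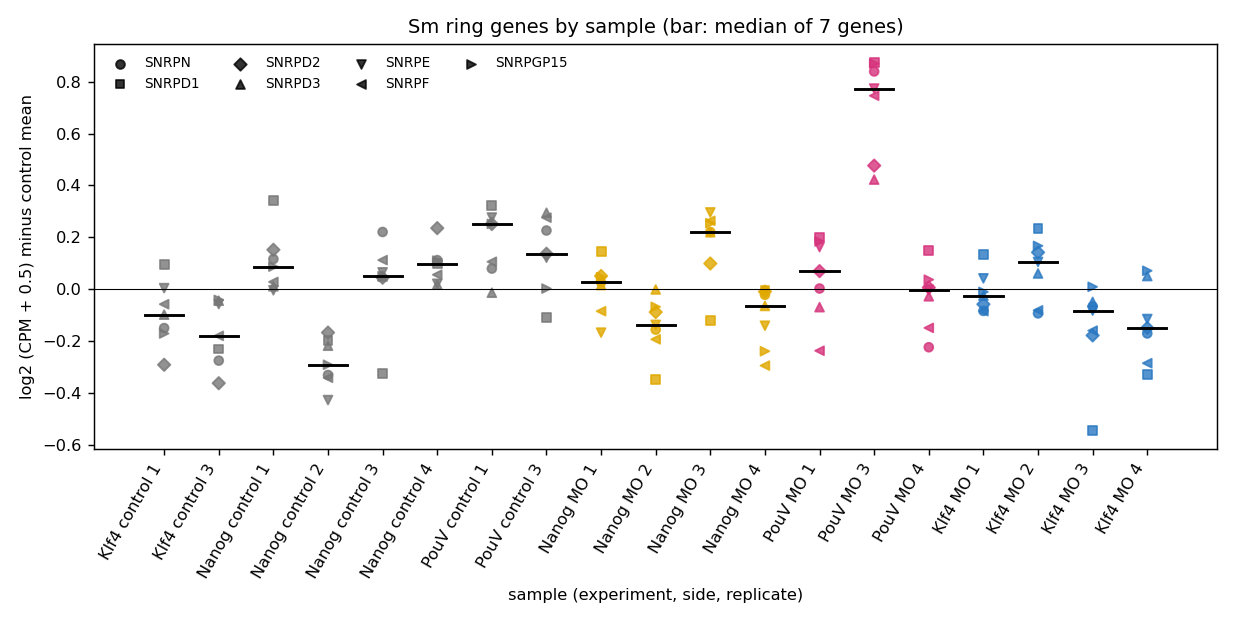
Deviation of the 7 Sm ring genes from their control mean, in log2 of CPM plus 0.5 (vertical axis), in each of the 19 samples (horizontal axis); each symbol is a gene, colours give the group and the black bar is the median of the 7. PouV MO replicate 3, with a median of 0.77, is the only sample in which all 7 genes lie above 0.4, and the other 2 PouV MO samples lie within the range of the controls.

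SNRPGP15, annotated in RefSeq with the synonym SNRPG and so counted with the Sm ring, had the smallest p-value of the SNRP genes. It was at 96.1, 155 and 86.8 CPM in PouV MO replicates 1, 3 and 4, and at 69.0 to 101 CPM in controls, so only replicate 3 was outside the control range. Its log2 fold change was 0.42 ± 0.13 (SE; edgeR adjusted p = 0.14), and 0.16 without that sample. SNRPD1 was at 167, 267 and 161 CPM against 116 to 185 CPM, with 0.44 ± 0.17 (edgeR adjusted p = 0.22) and 0.20 without replicate 3. SNRPE and SNRPD2 had 0.35 and 0.23, and 0.13 and 0.12 without it.

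Within the 2 PouV pairs the Sm ring differed in direction. In pair 1 all 7 genes were lower on the PouV MO side, with a median log2 ratio of -0.11, and in pair 3 all 7 were higher, with a median of 0.61. Pairs of the Nanog experiment also differed, from -0.16 in pair 4, where 0 of 7 were higher, to 0.17 in pairs 2 and 3, where 6 of 7 were. In Nanog pair 4 the deviations of the sides from their group means did not correlate (-0.00058), unlike in the other pairs. Without PouV MO replicate 3 the median was 0.12 for the Sm ring and 0.023 for the SNRP group, with 4 of 7 and 6 of 10 genes above 0, and none of the 10 was higher and 1 lower at an unadjusted p under 0.05. With all 3 PouV MO samples and no factor for unwanted variation, the SNRP median was 0.18 against all controls and 0.0064 against the PouV controls alone.

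Other gene groups differed in the same sample. The median deviation in PouV MO replicate 3 was 0.89 for the 67 genes with RPL or RPS symbols, cytosolic ribosomal protein genes, and 0.03 and 0.02 in the other 2 PouV MO samples. For 7 measured LSM genes (LSM1, LSM3, LSM5, LSM6, LSM8, LSM10 and LSM11), whose proteins resemble Sm proteins, it was 0.81 there and 0.11 and -0.09 in the others. In PouV MO replicate 3 all 6 measured non-neural ectoderm markers (none at 0) summed to 978 CPM, the highest of the 19 samples. The sum was 464 and 505 CPM in the other 2 PouV MO samples and 255 to 694 CPM in the controls. Most of the 978 CPM came from KRT18, which reached 678 CPM, while GATA2, the next highest marker, reached at most 150 CPM in any sample. The total count of PouV MO replicate 3, 36713574, was within the range of the other samples. Its TMM factor of 0.937 was the lowest of the 19 samples, and the next lowest was 0.970. The part of these groups in the Sm result was not tested.

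SNRPA1, which encodes the U2 protein A', was the only SNRP gene below 0 after PouV knockdown. It was at 39.1, 47.7 and 55.9 CPM in the 3 PouV MO samples and at 48.3 to 79.6 CPM in controls. Replicates 1 and 3 lay under the lowest control and replicate 4 within the range. Against the controls the log2 fold change was -0.43 ± 0.16 (edgeR adjusted p = 0.21) and was -0.42 without replicate 3. The ratio within pairs was -0.89 in PouV pair 1 and -0.11 in pair 3, a wide spread between the embryos. Against the Klf4 MO samples, where SNRPA1 was at 63.0 to 88.4 CPM, the difference was -0.69 ± 0.19 (edgeR adjusted p = 0.20).

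In the SF3A and SF3B complexes, which sit on the U2 particle at the branch site, the median was 0.049, with 3 of 8 genes higher and 1 lower at an unadjusted p under 0.05. SF3B5 and SF3B6, small subunits of SF3B, each had 0.36 (SE 0.14 and 0.13, edgeR adjusted p = 0.21). SF3B5 was at 84.6, 165 and 90.5 CPM in PouV MO replicates 1, 3 and 4 against 71.4 to 108 CPM, so replicate 3 again stood alone, and without it the values were 0.06 and 0.029. SF3A1 and SF3A2 of the SF3A complex had -0.18 and 0.20, and -0.073 and 0.041 without replicate 3, when 0 of the 8 genes were higher and 0 lower at that p. U2AF2 had 0.12 ± 0.083 (edgeR adjusted p = 0.48) and U2AF1, the small subunit that contacts the 3' splice site AG, -0.021 ± 0.077. Without replicate 3 these were 0.0057 and -0.12.

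The PRPF group had a median of -0.040, and PRPF39, a protein of the U1 particle known in yeast, was the only member of it past an unadjusted p of 0.05. It was at 123, 76.8 and 93.3 CPM in PouV MO replicates 1, 3 and 4, against 99.7 to 146 CPM in controls, and replicates 3 and 4 lay under the lowest control. Its log2 fold change was -0.35 ± 0.13 (edgeR adjusted p = 0.21), and -0.19 without replicate 3. PRPF8, the large protein at the heart of the spliceosome, had 694, 442 and 768 CPM and a log2 fold change of -0.25 ± 0.13 (edgeR adjusted p = 0.34), and -0.047 without replicate 3.

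**Figure D4:**
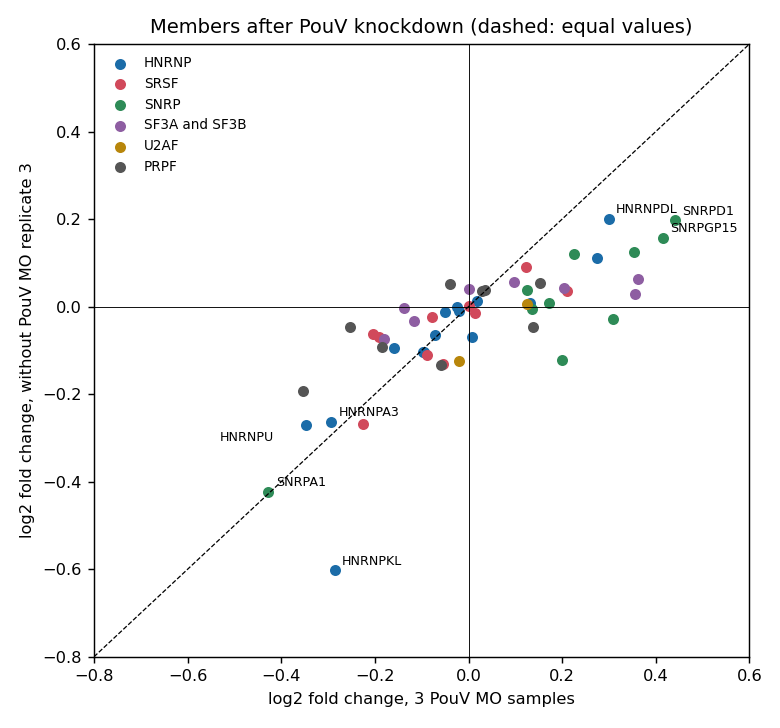
Log2 fold change of each of the 54 members after PouV knockdown with all 3 PouV MO samples (horizontal axis) and without PouV MO replicate 3 (vertical axis), coloured by prefix group; the dashed line marks equal values. SNRPD1 moves from 0.44 to 0.20 and SNRPGP15 from 0.42 to 0.16, while HNRNPU (-0.35 and -0.27), HNRNPA3 (-0.29 and -0.26) and SNRPA1 (-0.43 and -0.42) stay near the line.

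Leaving out single samples changed the PouV count. Without PouV MO replicate 4, 5 members were called, HNRNPU, HNRNPA3, HNRNPDL, SRSF11 and SNRPGP15, among 497 genes in all, against 126 with all samples. Without PouV control replicate 3 or Klf4 control replicate 3 HNRNPU alone was called, and without any other sample the count was 0.

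After Klf4 knockdown no member was higher and 3 were lower at an unadjusted p under 0.05, against 2.74% and 3.3% of all genes. Of the 54 log2 fold changes, 34 were within 0.1 of 0 and 48 within 0.2. No member had all Klf4 MO samples above or below the controls, where 1.33% and 1.37% of all genes did. The 3 lower members were HNRNPLL, SRSF1 and SRSF4.

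SRSF1, an SR protein with roles from splice site choice to mRNA export, was at 988, 890, 750 and 818 CPM in Klf4 MO replicates 1 to 4. The 8 controls ran from 906 to 1311 CPM with a median of 1206, and the groups overlapped at replicate 1. The 2 lowest controls, at 1058 and 906 CPM, were those of the Klf4 experiment, and the other 6 ran from 1100 to 1311 CPM. The log2 fold change was -0.24 ± 0.077 (SE; edgeR adjusted p = 0.48). Without the factor for unwanted variation it was -0.44 against all controls (edgeR adjusted p = 0.030) and -0.19 against the 2 Klf4 controls alone (edgeR adjusted p = 1.00). With each group as a set of replicates for that factor it was -0.35 (edgeR adjusted p = 0.047). Within Klf4 pairs 1 and 3 the ratios were -0.10 and -0.27.

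HNRNPLL, known in mammalian lymphocytes for its part in CD45 splicing, showed a wider gap between experiments. It was at 135, 112, 102 and 118 CPM in Klf4 MO samples, at 142 and 113 CPM in the Klf4 controls, and at 175 to 225 CPM in the other 6 controls. The Klf4 controls thus lay with the Klf4 MO samples. Its log2 fold change was -0.27 ± 0.082 (edgeR adjusted p = 0.45). Without the factor for unwanted variation it was -0.63 against all controls (edgeR adjusted p = 0.032) and -0.12 against the Klf4 controls alone (edgeR adjusted p = 1.00). Its MO side was lower in 8 of 8 pairs over the 3 experiments, by ratios of -0.02 to -0.44.

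SRSF4 was at 26.7, 28.2, 39.7 and 33.1 CPM in Klf4 MO samples and at 30.3 to 50.9 CPM in controls, which overlapped. Its log2 fold change was -0.42 ± 0.15 (edgeR adjusted p = 0.61), and the ratios within Klf4 pairs 1 and 3 were -0.37 and -0.35. All 10 SNRP genes had a log2 fold change above 0 after Klf4 knockdown, with a median of 0.12 and none at an unadjusted p under 0.05, and without the factor the median was -0.073. The smallest p-values of the other groups belonged to SNRPD2 with 0.17, SF3B3 with -0.11, U2AF1 with 0.15 and PRPF4B, a kinase that phosphorylates spliceosome proteins, with -0.19.

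All 6 samples of the Klf4 experiment, MO and control, had a median deviation of the 54 members under the control mean, from -0.16 to -0.026. For the SF3A and SF3B genes it was -0.26 to -0.076. The neural plate markers were low in this experiment too, though not in it alone. The sum of all 7 (none at 0) was 243 to 420 CPM in Klf4 MO samples and 327 and 588 CPM in the Klf4 controls. The other controls ran from 747 to 1301 CPM. PouV MO replicate 4 was at 400 CPM, and the other MO samples of the Nanog and PouV experiments were at 757 to 952 CPM. After Klf4 knockdown 5 of the 7 markers were lower at an unadjusted p under 0.05. The sum of the 11 endoderm markers was 1158 and 1486 CPM in the Klf4 controls and 1184 to 1738 CPM in Klf4 MO samples. In the Nanog and PouV experiments it was 613 to 1239 CPM. After Klf4 knockdown 0 of these 11 were higher and 1 lower at that p. The part of either marker group in the values of SRSF1 and HNRNPLL was not tested. The count of calls also changed without Klf4 control replicate 3, when HNRNPLL, SRSF1 and PRPF4B were called (edgeR adjusted p = 0.0070, 0.017 and 0.034), and 759 genes in all in place of 3.

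HNRNPKL varied more than any other member, in the controls as well as after knockdown. The gene lies on the W chromosome, which only female birds carry, and HNRNPK, a K-homology domain protein that binds C-rich RNA and DNA, has its Z-linked copy under an identifier without a symbol, so that copy was outside the 54. HNRNPKL was at 1.34 and 1.12 CPM in Klf4 MO replicates 2 and 4, from 55 and 48 reads, and at 35.7 to 299 CPM in the other 17 samples. In the same 2 samples HINTW, another W-linked gene, was at 2.97 and 0.747 CPM, against 183 to 2303 CPM elsewhere. Neither of these Klf4 MO samples had a control from the same embryos among the samples used here.

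The Z copy went the other way. It was at 685 and 749 CPM in Klf4 MO replicates 2 and 4, the 2 highest values, and at 337 to 554 CPM in the others. The sum of both copies ran from 562 to 750 CPM, with a coefficient of variation over the 19 samples of 7.46%, where HNRNPKL alone had 55.5% and the Z copy alone 22.4%. Reads of such similar copies can be split between them by the counting. In Klf4 MO replicates 2 and 4 HNRNPKL took 0.20% and 0.15% of the sum, so few reads of the Z copy were counted on it there. How many reads of the W copy were lost or counted on the Z copy was not tested, so each level remains uncertain.

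**Figure D5:**
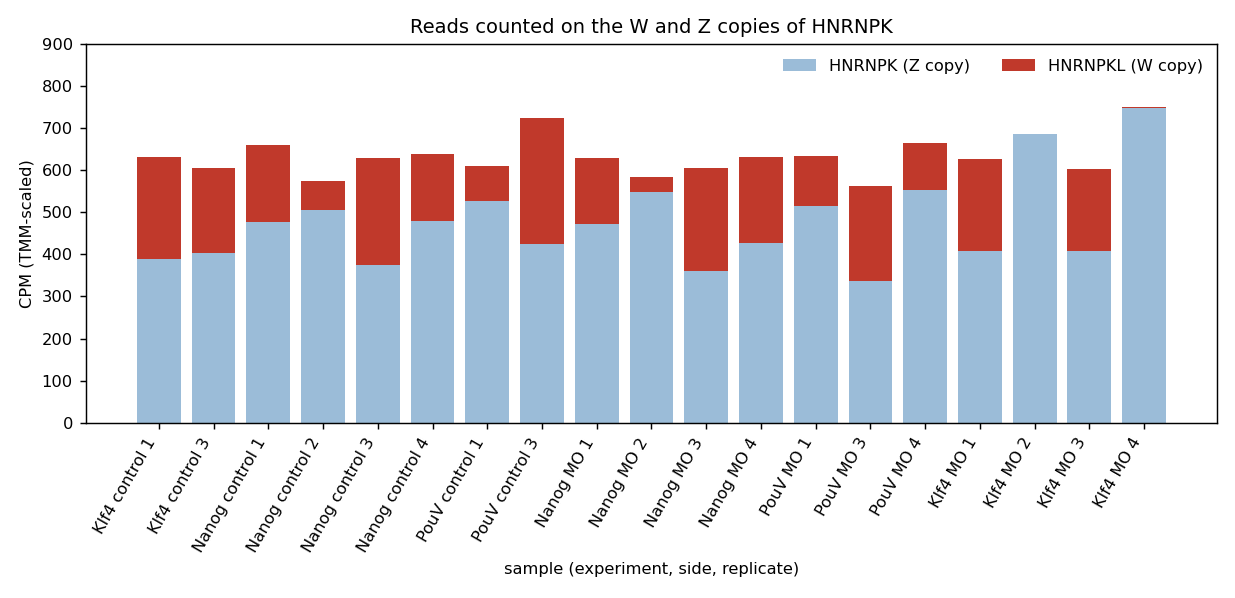
Levels in CPM (vertical axis, from 0) of HNRNPK on the Z chromosome (blue) and HNRNPKL on the W chromosome (red), stacked, in each of the 19 samples (horizontal axis). The red share is absent at this scale in Klf4 MO replicates 2 and 4, where HNRNPKL is at 1.34 and 1.12 CPM, and the stacked height runs from 562 to 750 CPM.

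For HNRNPKL the log2 fold change was -0.31 in the Nanog, -0.29 in the PouV and -0.60 in the Klf4 comparison, with SEs of 0.86, 0.94 and 0.93 (edgeR adjusted p = 1.00, 0.91 and 0.96), and none was larger than its error. Within the 8 pairs of sides its log2 ratio ran from -0.96 in Nanog pair 2, at 69.6 CPM on the control and 35.7 CPM on the MO side, to 0.51 in PouV pair 1, and it was -0.055 in Nanog pair 3, at 253 and 244 CPM. The Z copy had 0.021, 0.039 and 0.23 with SEs of 0.17, 0.19 and 0.20.

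Direct comparisons between knockdowns called no member either. Between PouV and Nanog knockdown 0 of 54 members were called by edgeR (0.174% of all genes). At an unadjusted p under 0.05 there were 13 members, 24.1% of them, against 13% of all genes. Of these 9 were higher and 4 lower after PouV knockdown. HNRNPU had the smallest p-value, with -0.36 ± 0.090 (edgeR adjusted p = 0.10), and DESeq2 called it alone of the members, among 322 genes. Without PouV MO replicate 3 the members at that p were 1 higher and 2 lower, 5.56% of them, against 8.79% of all genes. Between PouV and Klf4 knockdown 0 were called (0.0948% of all genes). At an unadjusted p under 0.05 there were 6, 11.1% of the members, against 9.31% of all genes. HNRNPA3 was first at -0.35 ± 0.088 (edgeR adjusted p = 0.15), the only member among the 189 genes that DESeq2 called. Without PouV MO replicate 3, 2 members were higher and 4 lower at that p, 11.1% of them, against 8.35% of all genes. Between Klf4 and Nanog knockdown 0 were called (0.0263% of all genes). At an unadjusted p under 0.05 there were 4, 7.41% of the members, against 7.48% of all genes. They were led by SRSF1 at -0.32 ± 0.088 (edgeR adjusted p = 0.30), and DESeq2 called 0 members among 110 genes.

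Splicing genes outside the 54 were followed in 6 lists, with 89 of 111 listed genes measured. In edgeR 0 of 89 were called after each knockdown, and at an unadjusted p under 0.05 1 was higher and 2 lower in the Nanog comparison, 14 and 9 in the PouV comparison, and 2 and 5 in the Klf4 comparison. These were 1.12% and 2.25% of the 89 after Nanog knockdown, against 3.87% and 1.93% of all genes, 15.7% and 10.1% after PouV knockdown, against 9.38% and 6.32%, and 2.25% and 5.62% after Klf4 knockdown, against 2.74% and 3.3%. Without PouV MO replicate 3 the PouV counts were 0 higher and 4 lower, against 3.45% and 3.17% of all genes. DESeq2 called 0 of them after Nanog knockdown, 1 after PouV knockdown (ELAVL1) and 2 after Klf4 knockdown, SMN among them. The median of the LSM ring after PouV knockdown was 0.36, with 4 of 7 higher at an unadjusted p under 0.05, and without PouV MO replicate 3 it was 0.12 with 0 higher. All 7 exon junction complex genes were above 0 (median 0.12, 2 higher at that p), and without that sample 4 of 7 were above 0 and 0 higher.

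Of 36 other splicing regulators, none called by edgeR, 0 were higher and 8 lower after PouV knockdown at an unadjusted p under 0.05, where 6.32% of all genes were lower, and the median was -0.13. NONO and PSPC1, paraspeckle proteins, had -0.20 and -0.31, and ELAVL1, a stabiliser of AU-rich mRNAs, -0.18, and without PouV MO replicate 3 the values were -0.15, -0.42 and -0.18. MATR3 and FUBP1 had -0.19 and -0.29, and -0.081 and -0.11 without that sample. Of the 36, 10 were above 0, among them SFPQ with 0.069, and 0.077 without that sample. Without that sample the median of the 36 was -0.058, with 13 above 0 and 4 lower at that p. After Klf4 knockdown SMN, the scaffold for Sm ring assembly, had 0.36 ± 0.093 (edgeR adjusted p = 0.25).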

How the data were processed

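Per the labels' processing notes, reads were aligned with STAR 2.7.2a to GRCg6a. The authors deposited whole-number counts of reads per gene, not normalized, for 24356 genes, with a filtered table of 18996 genes (those over 5 reads in 1 sample or more), and a TMM-scaled table, a signal unit, which was used here only for gene symbols. Per the methods the gene counts came from STAR as well, and the annotation release and the use of strand are not given in the sources used here. All columns of per-sample values were mapped to samples (0 unmapped).

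The 19 samples were fitted together in edgeR 4.0.16 (R 4.3.3) with TMM normalisation, 4 groups, 1 factor of unwanted variation and the quasi-likelihood test, and p-values were adjusted by Benjamini-Hochberg over 18996 genes. The factor came from RUVs, rewritten here after its published description, with the controls as the replicate set and the 1000 genes of lowest coefficient of variation. The pooled control group, control-based RUVs and gene filter follow the methods of the study, while TMM, 1 factor and the test were chosen here. Factor values were 0.28 to 1.93 in the Klf4 experiment and -1.46 to 0.66 in the others, where PouV MO replicate 4 was highest. SEs were derived from the fold change and the F statistic, and per-sample deviations used a pseudocount of 0.5 CPM. Medians over members are descriptions without a test. The procedure was checked on simulated data with fold changes larger than those of the members and without paired sides. The check therefore does not measure the power for shifts as small as those seen here.

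The members, lists and rules were chosen with earlier results of these data known. Named were, in each prefix group, the member with most reads in the controls and that with the smallest p in each knockdown, and any member whose knockdown samples all lay beyond the controls at an unadjusted p under 0.05. Other members with an unadjusted p under 0.05, HNRNPKL and the genes of the role groups and pathway lists were named after their values were seen. Values of 1 gene from the pathway lists are not reported here. RefSeq (assembly bGalGal1.mat.broiler.GRCg7b) matched 52 members and served for names, chromosomes and neighbours only. Its symbol differs for HNRNPA0, HNRNPH2 and SRSF7, whose identity is therefore less sure.

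Control and MO samples of one number are sides of the same embryos by design. Over 13781 genes their deviations from the group means correlated at -0.00058 to 0.68 (median 0.58, 7 of 8 pairs over 0.1). The exception was Nanog pair 4, at -0.00058. Its pairing thus rests on the replicate number alone, and it is still counted among the 8 pairs. The number of embryos per pool is given differently in the labels and the methods. Alternatives were no or 2 factors, other RUVs sets, RLE factors, DESeq2 1.42.0, other filters and each sample left out. Same-experiment controls were used without a factor, and the replicate block with and without it. Total counts ranged from 31215191 to 44726348, and their precision covers counting error only. Sequences were not used here.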

Additional observations from a re-analysis of the deposited data

Results flagged for a closer look

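The values of named members and the medians of gene groups were searched in 87 groups of 4 to 8 samples. A sample was looked for whose gap to its nearest neighbour was large against the range of its group. About 1 in 20 groups meet this criterion by chance. The PouV MO group, with 3 samples, was too small for it, so PouV MO replicate 3 could not be flagged. The criterion was met in 2 groups. PRPF4B, a kinase of spliceosome proteins, was at 113 CPM in Nanog MO replicate 3, with the nearest of the other 3 Nanog MO samples at 127 CPM. PRPF8 was at 596 CPM in PouV control replicate 3, with the nearest of the other 7 controls at 727 CPM, and the MO side of the same embryos, PouV MO replicate 3, had the lowest PRPF8 level of all samples, 442 CPM.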

How the results depend on the processing

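Called members after Klf4 knockdown numbered 2 without a factor (HNRNPLL and SRSF1, among 440 genes), 1 with each group as a RUVs set (SRSF1) and 0 to 3 with single samples left out, and the members' median was -0.11 without a factor. After PouV knockdown they numbered 1 with 2 factors, 1 with each group as a RUVs set and 1 with edgeR's expression filter (HNRNPU each time), 2 with DESeq2, and 0 to 5 with single samples left out. Between PouV and Nanog and between PouV and Klf4 knockdown DESeq2 called 1 each, and leaving out samples gave 0 to 1. Between Klf4 and Nanog knockdown there were 2 without a factor, 1 with each group as a set and 0 to 2 with samples left out. After Nanog knockdown the count was 0 under every alternative run. The cause of these changes was not tested.

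The replicate block pairs the sides of the same embryos. PouV MO replicate 4 and Klf4 MO replicates 2 and 4 have no paired control, so its PouV and Klf4 values rest on pairs 1 and 3 of each experiment. With the block 0 members were called in each knockdown and each comparison between knockdowns. With the block and the factor, values turned sign for SNRPF (0.11), SF3B4 (0.050) and U2AF2 (0.11) after Nanog and HNRNPKL (0.21) after Klf4 knockdown. With the block and no factor these kept their sign. The values that turned sign then were those of HNRNPKL after PouV (0.051) and SF3B3 after Klf4 knockdown (0.0072). SNRPD2 after Klf4 knockdown was -0.073 without a factor. HNRNPKL after Nanog knockdown ran from -0.51 to 0.055 with single samples left out, positive without Nanog MO replicate 2 alone, and after PouV knockdown it was 0.054 as a mean within pairs, an alternative added after seeing the data, as were the group medians without PouV MO replicate 3. With the block and the factor, the SNRP median turned negative after Klf4 knockdown (-0.079) and positive after Nanog knockdown (0.089). With the block and no factor it kept its sign in both. Over 24 medians, 15 of 720 alternative values moved beyond their spread and 60 changed sign.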
